A study of Mus musculus with 2 samples.

Results

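*Bcl11a*, *Bcl11b* and *Satb1* encode DNA-binding proteins that were followed here through the cells of the embryonic mouse coronal suture, the fibrous joint between the frontal and parietal bones of the skull. The 3 genes were taken by their symbols from the 31053 genes listed for the E15.5 library and the 27998 listed for the E17.5 library. Their transcripts, counted as unique molecular identifiers (UMIs), were summed within each of the 15 osteogenic and mesenchymal clusters that the authors labelled.

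Embryos were C57/BL6 wildtype, and single cells were profiled with 10x Chromium 3′ v2 reagents. For E15.5, 10 sutures were pooled in 1 batch, digested with collagenase II plus dispase, and freed of dead cells with a removal kit. For E17.5, 16 sutures from 2 litters were digested with collagenase IV as batches of 10, 3 and 3, and the cells were sorted by FACS. The deposited matrix of a stage is called its library here, although that of E17.5 joins batches prepared separately. The paper's methods also give another way of dissection, another sequencing centre and another read depth for each stage. With 1 batch at E15.5 no test between stages was possible. The stage cannot be told apart from the dissection, the enzyme, the sorting, the centre and depth of sequencing, or the embryos. E17.5 barcodes carry a suffix of 1, 2 or 3, and which of them marks which batch is not given in the sources used here.

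BCL11A and BCL11B, also known as CTIP1 and CTIP2, are closely related zinc finger proteins that bind DNA, partner the COUP nuclear receptors, and act largely as repressors through the NuRD histone deacetylase complex. They are also subunits of BAF chromatin remodelling complexes. BCL11A is best known for silencing the fetal globin genes and for its roles in B cells and neurons, whereas BCL11B commits thymocytes to the T cell lineage, acts in skin and teeth, and is required in mice to keep the cranial sutures open. SATB1 folds chromatin into loops in thymocytes.

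In the GRCm38 genome, *Bcl11a* (ENSMUSG00000000861) lies on the plus strand of chromosome 11 from position 24078056 to 24174123, *Bcl11b* (ENSMUSG00000048251) on the minus strand of chromosome 12 from 107910403 to 108003602, and *Satb1* (ENSMUSG00000023927) on the minus strand of chromosome 17 from 51736187 to 51833290. The relation of the BCL11 genes is visible at the start of their coding sequences, which encode the short N-terminal motif through which these proteins recruit NuRD. The first 54 coding bases of the GENCODE transcripts Bcl11a-202 (chr11:24078391-24078444, plus strand) and Bcl11b-201 (chr12:108003090-108003143, minus strand) are shown for that reason, 5′ to 3′, with the bases that differ in capitals.
Bcl11a: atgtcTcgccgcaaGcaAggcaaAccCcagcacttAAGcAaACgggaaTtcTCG
Bcl11b: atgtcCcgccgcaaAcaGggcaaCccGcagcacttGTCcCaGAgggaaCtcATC
Of these 54 bases 39 (72.2%) were shared, and 8 of the 15 differing bases were at the third position of a codon. The first 30 bases held 5 of the differences. Both stretches lie in the first coding exon, far from the 3′ ends that the reads of this assay mark.

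The labelled cells numbered 5335 at E15.5, with a median of 8510 UMIs, and 6830 at E17.5, with a median of 12301.5 UMIs. Levels are given as UMIs per 1000000 UMIs of the cluster (CPM), and the 95% intervals are exact Poisson intervals that cover counting error only. The labels of OG4, PO1, PO2 and LIG were checked against a marker each. *Ibsp*, a bone matrix gene, was at 41200 CPM in the osteoblast cluster OG4 at E15.5 and at 13640 CPM at E17.5, and at no more than 449 CPM in any other cluster. *Mki67*, a proliferation gene, was highest in the proliferating osteogenic clusters PO1 and PO2, at 194.6 to 499.8 CPM. *Tnmd*, a tendon and ligament gene, was at 535.7 and 663.8 CPM in the ligament-like cluster LIG, although it was also at 703.6 CPM in the meningeal cluster MG1 at E17.5. OG1, OG2 and OG3 are called osteogenic here by the authors' labels, which the paper based on *Runx2*, *Sp7* and other osteoblast genes. *Sp7*, an osteoblast transcription factor, was at 203.9 CPM in OG4, 58.7 in OG3 and 15.1 in OG1 at E15.5. It was at 4.14 CPM in OG2 and 1.96 CPM in PO1, no higher than the 4.15 CPM of EC4 and the 12.0 CPM of MG4. In the E17.5 library it was at 91.9 CPM in OG1, 171.6 in OG2, 187.5 in OG3 and 179.9 in PO1, beside 109.5 CPM in EC1. The libraries shared 94 barcode sequences, and 37 recurred between suffixes within E17.5.

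*Bcl11b* was highest in osteogenic clusters of both libraries. At E15.5 it was highest in OG2 at 184 CPM (95% interval 171 to 197, 753 UMIs in 488 cells), followed by PO1 at 173 CPM (155 to 192) and PO2 at 169 CPM (135 to 210), whose intervals overlapped. OG1 came next at 106 CPM (91.6 to 121), below all of these and above the rest. The other clusters of the skull mesenchyme held much less. EC4 was at 47.4 CPM, LIG at 37.6, OG3 at 34.8 and EC1 at 31.5, and none of these differed from its neighbour in the order beyond counting error. A second gap lay below EC1, and under it MG2 was at 10.1 CPM, OG4 at 7.18, EC3 at 6.81, EC2 at 5.54, MG4 at 4.51, MG1 at 3.82 and MG3 at 2.03. The osteoblast cluster OG4 was therefore among those with least *Bcl11b*, with 13 UMIs in 190 cells (3.83 to 12.3 CPM), while the other 5 osteogenic clusters filled 5 of the first 7 places.

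At E17.5 PO2 (125 CPM, 109 to 144) and OG1 (122 CPM, 115 to 128) led, and their intervals overlapped. PO1 followed at 91.5 CPM and OG2 at 84.6, with LIG at 75.9, EC1 at 66.0 and EC4 at 65.2, each within counting error of its neighbour in the order. OG3 stood apart from both neighbours at 46.0 CPM. MG1 was at 35.4 CPM, MG2 at 31.4, EC3 at 20.3 and OG4 at 19 (16.4 to 21.8). EC2, MG4 and MG3 came last, at 6.04, 5.27 and 3.43 CPM. The osteogenic end of the order was thus held by the same 4 clusters in both libraries, with OG1 and PO2 ahead of OG2 at E17.5, and the low level of OG4 beside the other osteogenic clusters was seen in both.

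**Figure D1:**
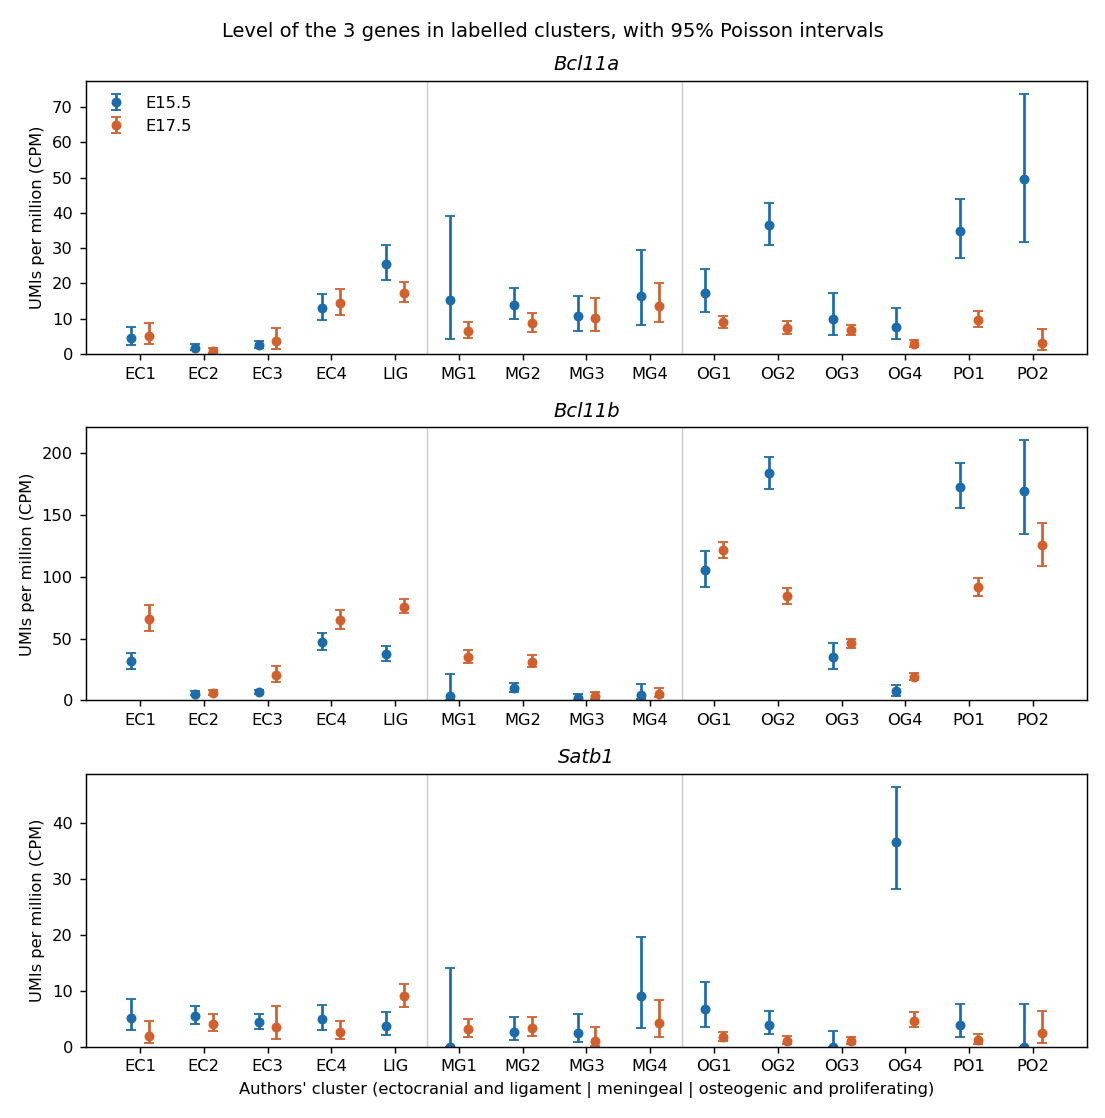
Level of *Bcl11a*, *Bcl11b* and *Satb1* in CPM ( linear axes that differ between the panels) in each of the 15 labelled clusters, with points for E15.5 and E17.5 and bars for exact 95% Poisson intervals. *Bcl11b* stands highest in OG1, OG2, PO1 and PO2 in both libraries, *Bcl11a* stands high in OG2, PO1 and PO2 at E15.5 only, and *Satb1* has 1 high point, OG4 at E15.5.

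Set against all other labelled cells, *Bcl11b* was 6.29-fold higher in OG2 at E15.5 (5.74 to 6.89) and 1.52-fold higher at E17.5 (1.40 to 1.64). In OG1 the ratio was 2.67 (2.29 to 3.08) at E15.5 and 2.49 (2.34 to 2.64) at E17.5, and in PO2 it was 4.14 (3.28 to 5.16) and 2.20 (1.90 to 2.53). OG1 and PO2 were the clusters in which *Bcl11b* was at least 2-fold higher in both libraries. Of 12150 genes with at least 50 UMIs in each library, 0.296% met this in OG1 and 3.05% in PO2, so that the rule was met by few genes in OG1. At 1.5-fold, *Bcl11b* also met it in OG2 and PO1, where 2.54% and 8.19% of genes did. The clusters were defined on the expression of these cells, so these ratios describe them and are no test. With barcode suffix 3 as the only E17.5 cells, the call in OG1 was met and that in PO2 was not.

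Across the authors' regions, *Bcl11b* was at 124 CPM in the osteogenic clusters (OG1 to OG4, PO1 and PO2) at E15.5, at 18.2 CPM in the ectocranial ones (EC1 to EC4 and LIG) and at 6.48 CPM in the meningeal ones (MG1 to MG4). At E17.5 the order was the same and the levels lay closer together, at 72.6, 47.7 and 25.5 CPM. The osteogenic clusters over the other labelled cells gave 7.62 (6.92 to 8.39) at E15.5 and 1.82 (1.72 to 1.93) at E17.5. PO1 and PO2 left out, these ratios were 6.81 and 1.69.

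Because cells of the libraries differ in depth, the share of cells with a *Bcl11b* UMI was also taken after each cell was thinned to 3000 UMIs. For OG2 cells of E15.5 it was 67.8% before and 37.8% after thinning, and for those of E17.5 it was 64.8% and 22.6%. In OG1 the thinned share was 18.5% in the earlier library and 26.5% in the later one, at median depths of 6836 and 10896 UMIs, and in MG3 it was 0 of 199 and 0 of 165 cells, which allows up to 1.84% and 2.21% by the exact binomial interval. Macrophage- or myeloid-like cells among the unlabelled cells, which are not known for *Bcl11b*, had thinned shares of 0.512% and 0.830% at median depths of 8948.5 and 9570.5 UMIs, where OG2 had medians of 7723 and 15134. The shares in OG1 and OG2 were thus far above those of the macrophage- or myeloid-like cells, whereas those in MG3 were not. The part of free RNA in these shares was not tested. Single cells held up to 10 *Bcl11b* UMIs at E15.5, in OG2, and up to 11 at E17.5, in PO2.

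Cells of OG1 to OG4 were then grouped by their UMIs from 8 osteoblast genes (*Runx2*, *Sp7*, *Alpl*, *Ibsp*, *Bglap*, *Ifitm5*, *Dmp1* and *Spp1*), counted in the thinned cells. *Bcl11b* was at 153 CPM (141 to 165) in the 500 cells at E15.5 with none of these UMIs, at 132 CPM in the 299 cells with 1 to 4, at 31.9 CPM in the 38 cells with 5 to 19, and at 6.91 CPM (3.68 to 11.8) in the 189 cells with 20 or more. At E17.5 the same groups, of 420, 1626, 562 and 378 cells, held 125 (116 to 135), 84.3, 36.3 and 14.4 CPM (11.8 to 17.4). *Bcl11b* was thus lower in each group with more osteoblast UMIs, and at E17.5 no interval overlapped that of the next group. At E15.5 the intervals of the cells with none and with 1 to 4 overlapped (141 to 165 and 119 to 147 CPM). Of the 8 genes, 7 were at least 2-fold higher in OG4 in both libraries, so these groups in part restate the clusters. The fall was not examined within single clusters. *Bcl11a* was also lower at the osteoblast end, from 29.9 to 8.5 CPM at E15.5 and from 7.32 to 2.80 CPM at E17.5. *Satb1* was low in the first 3 groups at E15.5, at 2.34 to 4.75 CPM, and at 34.0 CPM in the last. *Satb1* in the last group at E17.5 was at 6.0 CPM (4.37 to 8.02), above the 0.806 to 1.93 CPM of the other groups.

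**Figure D2:**
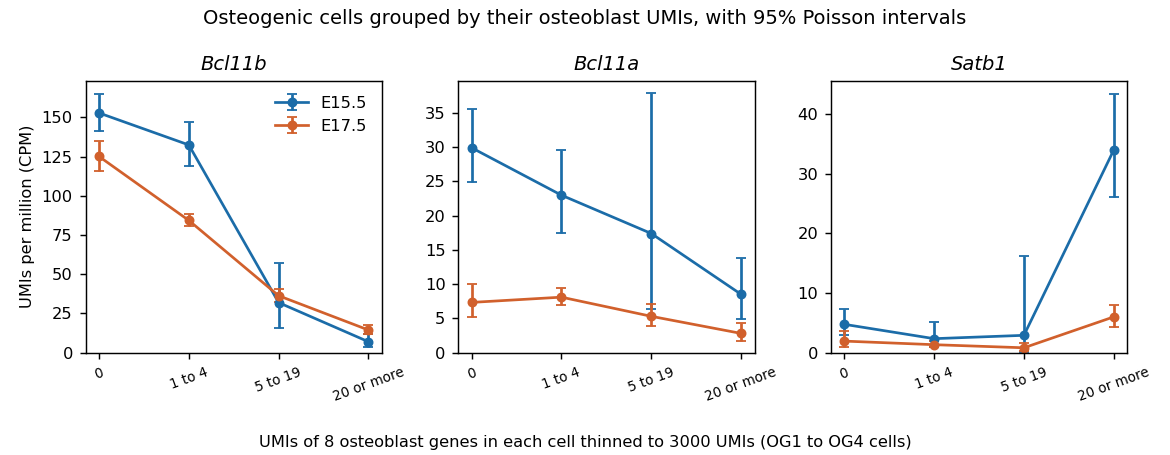
Level of *Bcl11b*, *Bcl11a* and *Satb1* (CPM, linear axes that differ between the panels) in OG1 to OG4 cells grouped by their UMIs of 8 osteoblast genes after thinning to 3000 UMIs, with lines for E15.5 and E17.5 and bars for exact 95% Poisson intervals. The *Bcl11b* lines fall from 153 to 6.91 CPM and from 125 to 14.4 CPM, and the *Satb1* lines end at 34.0 and 6.0 CPM.

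The authors also assigned each cell a cell cycle phase. Over all labelled cells *Bcl11b* was at 27.2 CPM in G1, 56.5 in S and 88.8 in G2M at E15.5, and at 46.6, 69.7 and 79.7 CPM at E17.5. Within clusters this order was not general. At E17.5 G1 cells were lowest in EC4 (48.8, 103 and 113 CPM in G1, S and G2M) and in OG4 (13.2, 35.5 and 29.2 CPM), G1 and G2M cells of LIG differed (70.6 and 106 CPM), and so did S and G2M cells of PO1 (73.5 and 100.1 CPM), each without overlap of the intervals. In OG1 at E17.5 the levels were 122, 121 and 124 CPM, in OG2 at E17.5 they were 85.6, 81.0 and 87.0, and in OG2 at E15.5 G2M cells were the lowest at 135 CPM beside 194 in G1 and 198 in S. All PO2 cells were in G2M.

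UMIs of markers of other cell types were found in the clusters where *Bcl11b* was high. In OG1 at E15.5, 51 of 261 cells held UMIs of keratinocyte markers (*Krt5*, *Krt14*, *Krt15*, *Epcam*, *Trp63*) or muscle markers (*Acta1*, *Myh3*, *Mylpf*, *Tnnc2*, *Myog*), whose lists summed to 409 and 560 CPM there and to 0.669 and 2.68 CPM in OG1 at E17.5. *Bcl11b* was at 62.8 CPM (38.8 to 95.9) in those 51 cells and at 115 CPM (98.5 to 133) in the other 210. The 51 cells were also shallower, at a median of 4926 beside 6994.5 UMIs. The part of such RNA in the level of OG1 was not tested. In OG2, PO1 and PO2 at E15.5 the list of neuron and photoreceptor markers summed to 385 to 669 CPM, beside 5.50 to 8.03 CPM in the same clusters at E17.5, and in OG1 at E15.5 it summed to 189 CPM. Nearly all of this was *Stmn2*, a regulator of microtubules in neurons, with 2740 UMIs in 289 of the 488 OG2 cells, whereas the defining neuronal and retinal markers *Neurod1*, *Crx* and *Otx2* were at 0 in all 3 clusters at E15.5.

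In OG2 and PO1 at E15.5, cells with those UMIs held more of both BCL11 transcripts. In OG2 at E15.5 *Bcl11b* was at 232 CPM (212 to 252) in the 290 cells with a UMI of the list and at 123.2 CPM (108 to 140) in the 198 without, and *Bcl11a* was at 53.8 CPM (44.7 to 64.2) beside 14.9 CPM (9.79 to 21.6). PO1 gave the same picture, with *Bcl11b* at 241 CPM beside 116 and *Bcl11a* at 56.7 CPM beside 16.3, and no intervals overlapped. In the 13 PO2 cells without these UMIs *Bcl11b* was at 144 CPM (95.8 to 208) and *Bcl11a* at 20.6 CPM (5.61 to 52.7, 4 UMIs), beside 186 CPM (140 to 243) and 69.0 CPM (42.1 to 107) in the 22 cells with them, and both pairs of intervals overlapped. At E17.5, where OG2 held 27 *Stmn2* UMIs in all, *Bcl11b* was at 82.6 CPM (63.0 to 106) in the 44 cells with a UMI of the list and at 84.8 CPM (78.2 to 91.8) in the others. The part of *Stmn2* cells in the levels of the other clusters was not tested.

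For *Bcl11a*, whose levels rest on 593 UMIs in the labelled cells of E15.5 and 735 in those of E17.5, the order of clusters was not the same in the libraries. At E15.5 it was highest in PO2 at 49.6 CPM (31.8 to 73.8, 24 UMIs), OG2 at 36.6 CPM (31.0 to 42.9, 150 UMIs) and PO1 at 34.8 CPM (27.2 to 43.9), followed by LIG at 25.6 CPM (20.9 to 31.0). OG1, MG4, MG1, MG2, EC4, MG3, OG3 and OG4 lay between 17.2 and 7.74 CPM, and EC1, EC3 and EC2 came last at 4.55, 2.42 and 1.74 CPM. No 2 neighbours in this order differed beyond counting error, although its ends did. Without the cells that held UMIs of the neuron list, PO2 was at 20.6 CPM (5.61 to 52.7, 4 UMIs), PO1 at 16.3 and OG2 at 14.9 CPM. The level of LIG was not taken without such cells, so these values are not ranked against it.

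At E17.5 LIG led at 17.4 CPM (14.8 to 20.3, 160 UMIs in 675 cells), followed by EC4 at 14.5 CPM, MG4 at 13.7 and MG3 at 10.3. PO1, OG1, MG2, OG2, OG3, MG1, EC1, EC3 and PO2 ranged from 9.77 down to 3.09 CPM, OG4 was at 2.86 CPM, and EC2 was lowest at 0.881 CPM (0.354 to 1.81), which was the only gap between neighbours. PO2, first at E15.5, was thus in the 13th place here, with 5 UMIs in 76 cells. Chondrocyte-like cells, which are unlabelled, held *Bcl11a* at 1.89 CPM (1.08 to 3.07) and 3.1 CPM (1.48 to 5.69) in the libraries, and EC2 was not above this level in either.

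LIG was the cluster in which *Bcl11a* was at least 2-fold above the other labelled cells in both libraries, with ratios of 2.32 (1.86 to 2.88) and 2.52 (2.1 to 3.01). Of the genes tested, 0.757% met the rule in LIG. The level of *Bcl11a* in LIG was nearly the same in the 3 barcode suffixes, at 17.7, 17 and 17.7 CPM, the first from 32 cells. The osteogenic clusters over the rest gave a *Bcl11a* ratio of 3.36 (2.85 to 3.96) for E15.5 and of 0.736 (0.635 to 0.853) for E17.5, on opposite sides of equality. The levels behind these ratios were 26.2 and 6.86 CPM in the osteogenic clusters and 6.79 and 9.64 CPM in the ectocranial ones.

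After thinning, 13.2% of OG2 cells held a *Bcl11a* UMI at E15.5 and 1.92% at E17.5. In LIG, at median depths of 7115 and 12300 UMIs, the shares were 6.43% and 5.19%. The share in macrophage- or myeloid-like cells, at the depths given above, was 1.02% and 0.207%. The share in OG2 at E17.5 was closer to that of these cells than the share in LIG was.

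*Satb1*, with 271 UMIs in the labelled cells of E15.5 and 287 in those of E17.5, stood high in 1 cluster at E15.5. OG4 held it at 36.5 CPM (28.2 to 46.4, 66 UMIs in 190 cells), 8.33 times the level of the rest (6.21 to 11). The next cluster, MG4, was at 9.03 CPM (3.31 to 19.7, 6 UMIs), and OG1, EC2, EC1, EC4, EC3, PO1, OG2, LIG, MG2 and MG3 lay between 6.76 and 2.54 CPM. MG1, OG3 and PO2 had 0 UMIs, which allows up to 14.1, 2.85 and 7.62 CPM by the exact Poisson interval. OG4 was the only cluster that stood apart from its neighbour.

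At E17.5 LIG led at 9.01 CPM (7.18 to 11.2, 83 UMIs), 3.68-fold above the other labelled cells (2.82 to 4.78), and it was the only cluster whose interval lay clear of the next. OG4 was next at 4.67 CPM (3.45 to 6.17, 49 UMIs), followed by MG4, EC2, EC3, MG2, MG1, EC4, PO2, EC1, OG1, PO1, OG3, OG2 and MG3, which ranged from 4.21 to 0.980 CPM. Chondrocyte-like cells held *Satb1* at 4.96 CPM (3.58 to 6.71) and, in the later library, at 4.02 CPM (2.14 to 6.88), so that at E17.5 only LIG lay above this level. With suffix 3 alone, however, LIG was at 5.90 CPM (3.92 to 8.53), which overlapped the chondrocyte-like interval. The thinned share in OG4 was 8.52% (4.85 to 13.7) at E15.5 and 1.71% at E17.5, where the median depths were 7351.5 and 19349 UMIs, beside 1.92% and 1.58% in chondrocyte-like cells at medians of 12088 and 9799. *Satb1* was at least 2-fold higher in both libraries in 0 of the 15 clusters, and at 1.5-fold in OG4, where 6.03% of all genes tested met that limit.

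UMIs of mast cell markers (*Kit*, *Cpa3*, *Ms4a2*, *Gata2*, *Cma1*) were also highest in OG4 at E15.5, at 322 CPM for the list beside 35.1 to 148 CPM in the other clusters, with none of the 5 markers at 0. Mast cell-like cells were themselves high in *Satb1*. In the 116 OG4 cells with no UMI of these markers *Satb1* was at 35.6 CPM (24.8 to 49.5), and in the 74 cells with one it was at 37.5 CPM (25.5 to 53.2). These intervals overlapped. The 116 cells were also shallower, at a median of 6300 beside 9183 UMIs, so having no UMI of these markers does not show that mast cell RNA was absent. The part of mast cell RNA in the level of OG4 was not tested. In LIG at E17.5 the mast cell list was at 23.0 CPM, within the 16.5 to 30.0 CPM of the other clusters, and *Satb1* was at 8.33 CPM (6.26 to 10.9) in the 500 cells with no UMI of it. Lymphocyte markers (*Cd3e*, *Cd3g*, *Cd79a*, *Ltb*, *Il7r*) had 0 UMIs in OG4 at E15.5 and 11 in LIG at E17.5.

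Across the 3 suffixes *Satb1* in OG4 was at 5.19, 5.16 and 4.00 CPM and did not differ by more than counting error.

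Among the unlabelled cells *Satb1* was high in mast cell-like cells, while chondrocyte- and pericyte-like cells held little. Mast cell-like cells held it at 40.7 CPM (32.6 to 50.3, 339 cells) at E15.5 and at 55.3 CPM (29.4 to 94.5, 33 cells) at E17.5. A high doublet score marked 15 of the 33 cells at E17.5 (45.5%), and 10 of 299 and 19 of 40 cells in the E15.5 clusters so named. A cluster of 11 cells at E15.5 that stayed unnamed, led by *Il22*, *Il17f* and *Trbc2*, had 7 *Satb1* UMIs (86.2 CPM, 34.7 to 178). Neuron- or photoreceptor-like cells, found at E17.5, held 31 *Satb1* UMIs in 95 cells (13.6 to 28.3 CPM). Macrophage- or myeloid-like cells were at 8.74 CPM (6.09 to 12.2) and 3.97 CPM in the libraries, and pericyte-like cells were at 2.63 and 3.1 CPM. The level of OG4 at E15.5 did not differ from that of mast cell-like cells beyond counting error.

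**Figure D3:**
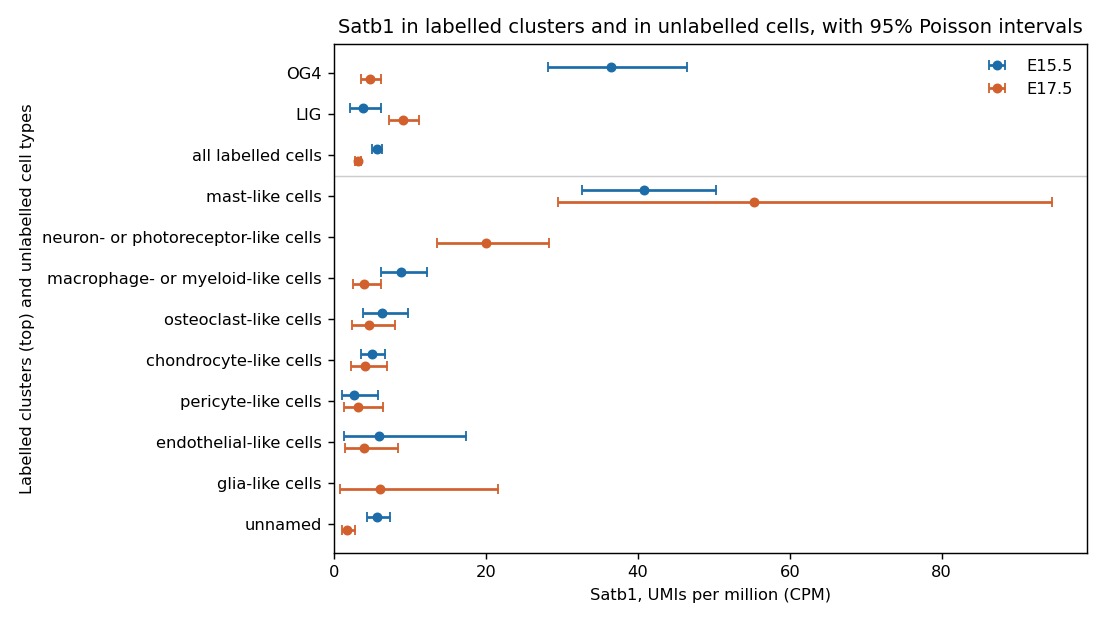
Level of *Satb1* (CPM, linear axis) in OG4, LIG and all labelled cells, and in the cell types that the unlabelled cells of each library fell into, with exact 95% Poisson intervals. The points for mast cell-like cells (40.7 and 55.3 CPM) and for OG4 at E15.5 (36.5 CPM) are the highest plotted.

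*Bcl11b* was at 0 to 7.90 CPM in the named unlabelled cell types at E15.5 and at 1.79 to 7.08 CPM at E17.5. It was high in 3 unlabelled clusters that stayed unnamed. One of 74 cells at E15.5, led by *Stmn2*, *Hs3st6* and *Dll1*, held it at 106 CPM (84.9 to 131), at a median depth of 7589 UMIs and with 29.7% of its cells at a high doublet score. At E17.5 a cluster of 209 cells led by *Calm5* and *Cxcl14* was at 112 CPM (103 to 122) and a cluster of 152 cells led by *Smpd3*, *Tcf7* and *Ihh* at 108 CPM (98.7 to 117). The last 2 had median depths of 26628 and 35719.5 UMIs, 20.1% and 25.0% of their cells had a high doublet score, and they held *Sp7* at 117 and 187 CPM. *Bcl11a* reached 7.90 and 8.41 CPM in pericyte-like cells. Barcodes with fewer than 1000 UMIs at E15.5 gave *Bcl11b* at 13.2 CPM from 7 UMIs, *Satb1* at 9.43 CPM from 5 UMIs and *Bcl11a* at 3.77 CPM from 2.

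The libraries were compared within each cluster as ratios of E17.5 over E15.5, with counting intervals. *Bcl11b* was higher at E17.5 in 7 of 15 clusters, lower in 3, and its interval included equality in 5. The higher ectocranial and meningeal clusters had ratios of 2.09 in EC1 (1.62 to 2.72), 2.98 in EC3 (1.98 to 4.45), 1.38 in EC4 (1.14 to 1.66), 2.02 in LIG (1.69 to 2.42) and 3.11 in MG2 (2.09 to 4.76). MG1 gave 9.28 with an interval from 1.65 to 368, since it held 1 UMI at E15.5. EC2 (1.09, 0.720 to 1.65), MG3 (1.69, 0.429 to 7.85) and MG4 (1.17, 0.300 to 6.60) had intervals that included equality. OG4 was also higher, at 2.64 (1.51 to 5.04). OG2 (0.461, 0.415 to 0.512), PO1 (0.529, 0.464 to 0.604) and PO2 (0.740, 0.570 to 0.969) were lower, and OG1 was at 1.15 (0.994 to 1.34). In cells without UMIs of the neuron list the ratio was nearer to 1, at 0.688 (0.590 to 0.806) in OG2, 0.770 (0.635 to 0.940) in PO1 and 0.872 (0.584 to 1.35) in PO2, where it included equality. For OG2 the list left out 290 cells at E15.5, which held more *Bcl11b*, and 44 at E17.5. A ratio nearer to 1 followed from that choice of cells, and what those cells are was not tested. *Sp7* also differed between the libraries under the same labels. It was at 4.14 CPM (E15.5) and 171.6 CPM (E17.5) in OG2, at 1.96 and 179.9 in PO1, and at 10.3 and 155.6 in PO2. Whether a label holds like cells in both libraries was not tested, for the ratios of any of the 3 genes. Intervals on 1 side of equality were common among the 12150 genes. Of these, 17.2% lay above it in EC1, 17.9% in EC3, 19.2% in EC4, 18.5% in LIG, 4.02% in MG1, 18.6% in MG2 and 26.9% in OG4, and 28.9% lay below it in OG2, 23.8% in PO1 and 12.7% in PO2. A call of this kind in 1 cluster is therefore a description of the gene and sets it apart little from other genes. Over all labelled cells the ratio was 1.38 (1.31 to 1.45), and 1.01 when the E17.5 clusters were weighted as at E15.5.

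*Bcl11a* was lower at E17.5 in 7 clusters, higher in 0 and overlapped equality in 8. The lower ones were PO2 (0.0623, 0.0186 to 0.167), OG2 (0.20, 0.145 to 0.273), PO1 (0.281, 0.199 to 0.396), OG4 (0.369), OG1 (0.522), MG2 (0.628) and LIG (0.680). Of all genes tested, 15.3% lay below equality in OG4, 25% in OG1, 15.1% in MG2 and 25.5% in LIG. In cells without UMIs of the neuron list the *Bcl11a* ratio was 0.495 (0.306 to 0.819) in OG2, 0.168 (0.0361 to 0.845, from 4 and 5 UMIs) in PO2 and 0.595 (0.348 to 1.07) in PO1, where it included equality. In OG2 and PO1 the cells left out at E15.5 were again more numerous than at E17.5, and they held more *Bcl11a* than those kept. Over all labelled cells the ratio was 0.651 (0.583 to 0.726).

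*Satb1* was lower at E17.5 in OG4 (0.128, 0.0866 to 0.188), OG1 (0.260), OG2 (0.259) and PO1 (0.316), and higher in LIG (2.40, 1.37 to 4.47), calls that 15.3% to 28.9% of genes met in the same clusters and directions. In the other 10 clusters the interval included equality or, in 3 of them, no UMI was seen at E15.5. Over all labelled cells the ratio was 0.556 (0.469 to 0.659). OG4 was thus a cluster in which *Satb1* was lower at E17.5, while *Bcl11b* was higher.

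**Figure D4:**
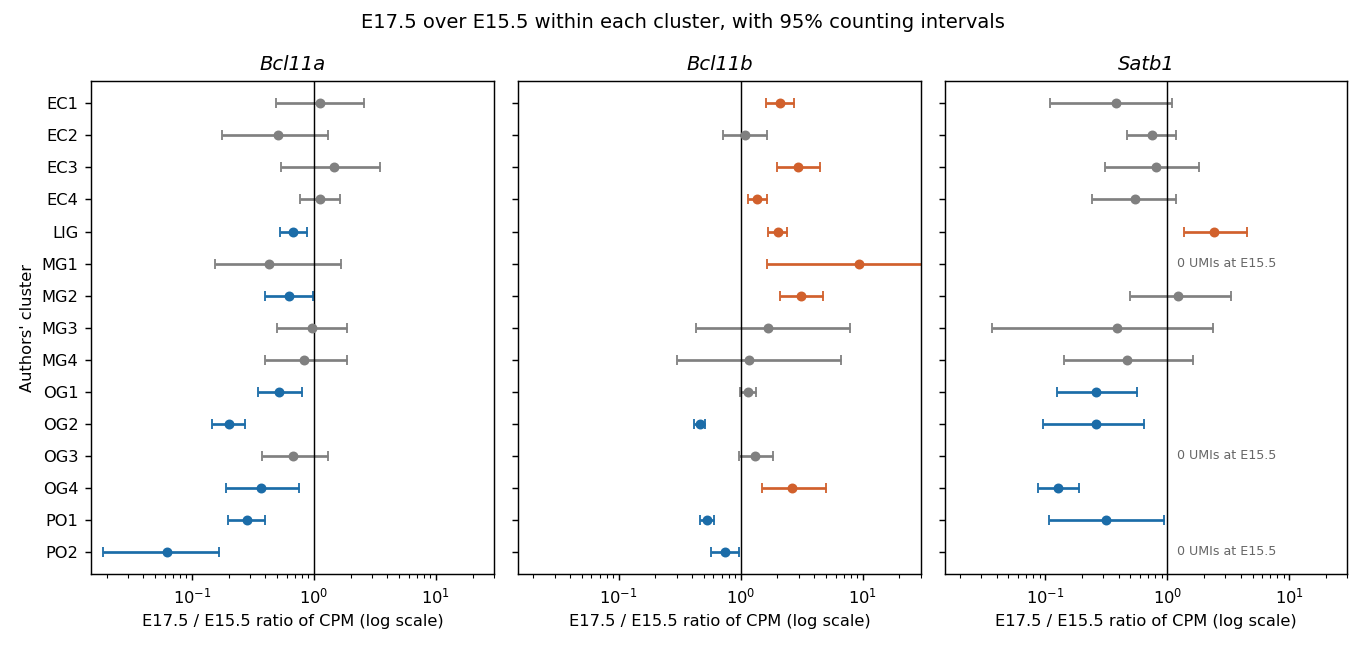
Ratio of the E17.5 to the E15.5 level in each cluster for the 3 genes (log axis), with 95% counting intervals, in orange where the interval lies above 1, in blue where it lies below 1 and in grey where it includes 1. *Bcl11b* has 7 orange and 3 blue points, *Bcl11a* 7 blue points, and *Satb1* 1 orange and 4 blue points, and the MG1 interval of *Bcl11b* runs past the axis.

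Within E17.5 the suffixes held 1234, 2770 and 2826 labelled cells. *Bcl11b* in OG1 was at 116, 112 and 131 CPM and in OG2 at 74.9, 85.0 and 87.7 CPM, so all 3 suffixes lay below the 184 CPM of OG2 at E15.5. PO1 was at 61.1, 98.7 and 93.1 CPM and PO2 at 98.3, 147 and 116 CPM. OG3 and OG4 varied little, at 43.9 to 47.9 and 18.0 to 19.9 CPM. EC1 varied more, at 45.7, 106 and 67.2 CPM. Over all labelled cells suffix 1 was at 41.5 CPM, beside 62.7 and 60.7 CPM, and close to the 42.2 CPM of E15.5. Suffix 1 had 0 cells in MG1 and 32 in LIG. *Satb1* in LIG was at 11.8 (4 UMIs), 12.4 and 5.90 CPM.

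**Figure D5:**
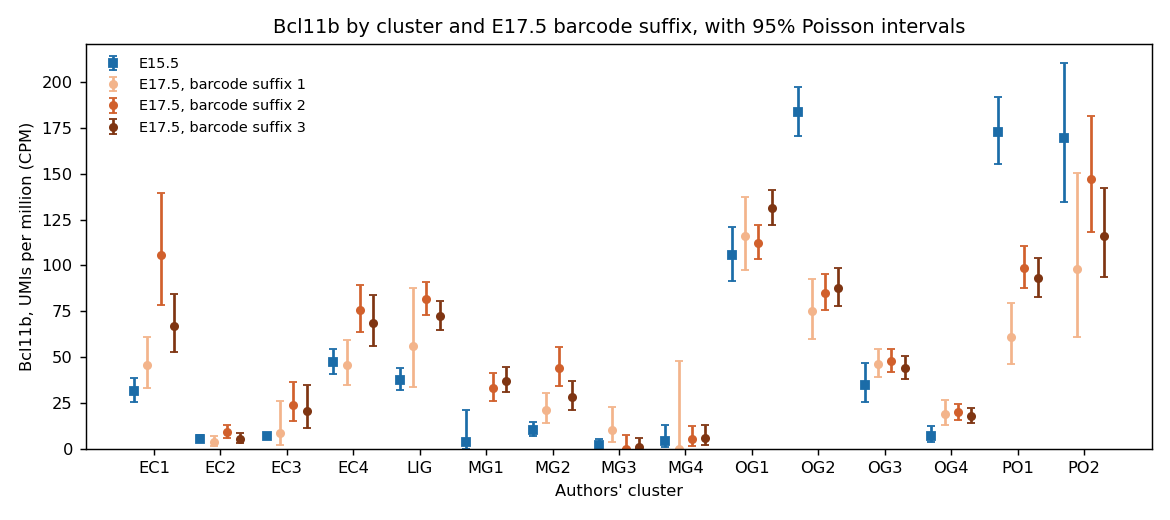
Level of *Bcl11b* (CPM, linear axis) in each cluster at E15.5 (squares) and in the 3 barcode suffixes of E17.5 (circles), with exact 95% Poisson intervals. In OG2 and PO1 all suffixes lie below E15.5, and in OG1 they lie at 112 to 131 CPM beside 106 CPM.

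Transcripts of both BCL11 genes were found in the same thinned cells more often at E15.5 than the product of the single shares gives, in 53 of 5175 cells beside 17.7. At E17.5 it was 31 of 6830 cells beside 23.1. Within OG2 at E15.5, where both genes were high, it was 35 of 484 cells beside 24.2, and within OG1 it was 0 of 233 beside 1.85. These counts are descriptions, since depth and composition are shared by the cells of a cluster.

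Transcripts of the proteins with which BCL11A and BCL11B act were counted by the same 2-fold rule. Of 13 genes for NuRD subunits, 0 were at least 2-fold higher in both libraries in OG1, OG2, PO1, PO2 or LIG. Of all genes tested, 0.239% (OG2) to 3.96% (PO1) passed in these clusters, and 3.02% in OG4. A count of 0 therefore sets a list this short apart little from other genes. In OG4 *Mbd2*, the subunit that binds methylated DNA, was higher, at 84.0 and 49.6 CPM (12.8-fold and 4.77-fold). The median ratio of the 13 genes in OG1 was 1.29 at E15.5 and 1.07 at E17.5, beside 1.03 and 0.979 for all genes tested. In OG2 it was 1.21 and 1.15, beside 0.999 and 0.936, and the share of all genes past the limit there was 0.239%. Of 15 BAF subunit genes and of 3 COUP genes (*Nr2f1*, *Nr2f2*, *Nr2f6*), 0 passed in any of these 6 clusters. The median ratio of the BAF genes in PO1 was 1.53 and 1.27, beside 0.981 and 0.972, and that of the COUP genes in OG2 was 0.266 and 0.985.

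Of 8 osteoblast genes 7 passed in OG4, where 3.02% of all genes did, *Runx2* being the exception, with a median ratio of 179 (E15.5) and 28.3 (E17.5), and 0 passed in the other 5 clusters.

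Of 10 suture progenitor genes, *Erg*, an ETS factor, passed in OG1 (3.47-fold and 4.87-fold), *Crabp1*, which binds retinoic acid, in OG2 (8.90-fold and 3.13-fold), *Lef1*, a Wnt effector, in PO2 (4.04-fold and 2.16-fold) and *Prrx1*, a mesenchymal homeobox factor, in LIG (2.18-fold and 2.44-fold). The shares of all genes that passed were 0.296% in OG1, 0.239% in OG2, 3.05% in PO2 and 0.757% in LIG. The median ratio of the 10 genes in OG1 was 1.43 and 1.49. The name of this list was chosen here, and the paper gives *Lef1* as a marker of OG2, which it reads as pre-osteoblasts. All 10 cell cycle genes passed in PO1, where 3.96% of all genes did, and 7 in PO2, where 3.05% did. In OG1, where *Bcl11b* passed and 0.296% of all genes did, 0 of the 10 passed. The clusters rich in *Bcl11b* thus included cells both with and without raised cell cycle genes.

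The genes most like each member across the 15 clusters were ranked by the lower of Spearman's rho at E15.5 and E17.5, as a description over points that share library, depth and clustering. For *Bcl11b* they were *Lef1* (0.91 and 0.89), *Cnbp* (0.89 and 0.88), *Inhba* (0.91 and 0.86), *Usp1* (0.87 and 0.86) and *Nop56* (0.85 and 0.85). For *Bcl11a* they were *Hsd17b10* (0.85 and 0.82), *Tln2* (0.71 and 0.76), *Adgre5* (0.69 and 0.81), *Nol3* (0.69 and 0.84) and *Stau2* (0.70 and 0.68). For *Satb1*, whose levels rest on few UMIs, they were *Gm26735* (0.72 and 0.71), *Syndig1* (0.68 and 0.79), *Supt3* (0.61 and 0.63), *Gm9844* (0.71 and 0.60) and *Rtn4rl1* (0.61 and 0.60). *Bcl11a* and *Bcl11b* were less alike, with rho of 0.62 and 0.09.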

How the data were processed

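UMI counts were taken from 1 matrix per stage, called its library. The authors deposited these counts without normalization and before their cell filters, together with a table of cluster labels, cell cycle phases and percent values of mitochondrial and globin UMIs, made with Seurat 3.2.0 per the labels. Cell Ranger 3.1.0 stands in the E15.5 matrix header, and the methods state another version. All 5335 labelled E15.5 cells had fewer UMIs there than in the authors' table (median 8510 beside 11513), whereas all 6830 E17.5 cells had equal numbers. Of 5340 labelled E15.5 barcodes 5335 were found, and 93 lay outside the authors' limits and were kept.

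UMIs were summed per cluster with Python 3.11.15, numpy 2.4.6, scipy 1.17.1 and pandas 2.3.3, figures were drawn with matplotlib 3.10.9, and CPM, exact Poisson intervals, ratios with exact conditional intervals and shares with Clopper-Pearson intervals were computed at 95%. These cover counting error only. No p-value was computed, since E15.5 is 1 batch, in 1 library, and the E17.5 matrix joins 3 batches that its suffixes do not name. Labelled cells held 48607817 UMIs (E15.5) and 92585034 UMIs (E17.5). Cells below 3000 UMIs (160 and 0) were left out of thinned shares.

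Of the other barcodes, 2875 at E15.5 and 1937 at E17.5 passed limits of 1000 UMIs, 1000 genes, 7.5% mitochondrial and 3% Hbb and Hba UMIs. They were clustered with scanpy 1.11.5 (2000 variable genes, 30 principal components, 30 neighbours, resolution 1). A cluster was named from at least 3 markers that were 2-fold above the other clusters and led by one of them, or from at least 4, a rule completed after seeing the data. High Scrublet scores, from the 94th percentile up, marked 204 and 340 labelled cells as possible doublets, which were kept and left out in an alternative.

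The 3 members, the gene lists and the rules were chosen with earlier results of these data known. The genes named are the members, the list genes at least 2-fold higher in both libraries in a cluster where a member leads (at most 5 per list), the 5 genes most like each member and the cell type markers. *Stmn2* and leading genes of unnamed clusters were named after their values were seen. A further gene of the rule, and a list that held it, are not reported here. Positions and coding bases are from GENCODE M21 on GRCm38. The antisense genes *Gm12064* and *4930538E20Rik* over *Bcl11a* had 0 UMIs in labelled cells.

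Alternatives were other cell limits, no doublets, each suffix alone, other normalizations, thinned shares, PO1 and PO2 left out, 1.5-fold, no minimum of 50 UMIs, 20 principal components, resolution 0.5 and Pearson correlation. The E15.5 cluster make-up, calls per suffix, and cells without markers of other types were added after seeing the data. The computation of levels, intervals and calls was tested on simulated data.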

Additional observations from a re-analysis of the deposited data

Results flagged for a closer look

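Of the ratios over the other labelled cells, 5 had counting intervals on opposite sides of equality in the libraries. E15.5 is 1 batch, so the difference between them was not tested. *Bcl11a* in the osteogenic clusters was at 3.36 (E15.5) and 0.736 (E17.5), and in the ectocranial clusters at 0.311 and 1.33. *Satb1* in the osteogenic clusters was at 1.94 and 0.441, and in the ectocranial clusters at 0.688 and 2.42. OG4 held 66 of the 103 osteogenic *Satb1* UMIs at E15.5, and LIG held 83 of the 140 ectocranial ones at E17.5. *Bcl11a* in PO2 was at 4.19, from 24 UMIs, and at 0.385, from 5 UMIs. In OG2 and PO1 at E15.5, cells with UMIs of the neuron list, nearly all *Stmn2*, held more *Bcl11a* than the other cells. In PO2 at E15.5 the 2 intervals overlapped. The part of such cells in the ratios above was not tested.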

How the results depend on the processing

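With 1 batch at E15.5, stage cannot be told apart from dissection, enzyme, sorting, embryos, sequencing centre, read depth and counting software. The clusters were defined on the same cells. *Satb1* rests on few UMIs, and most of its cluster levels were not detectably above chondrocyte-like cells at this depth. That reference was a choice, and those cells were not shown to lack *Satb1*. Other unlabelled cell types stood at other levels, so the clusters found above may depend on it. No paired analysis was possible because each group has 1 deposited sample. Of 215 alternatives computed, 164 left the value within its counting interval (counts of calls within 1.5 times), 50 moved it and 1 reversed it. Where a value moved, the cause was not tested.

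The reversal was *Bcl11b* over all labelled cells at E17.5 over E15.5, 0.983 with suffix 1 alone. That ratio was 1.48 with suffix 2 alone, 1.30 as a mean of cells, 2.05 without normalization, 1.55 as thinned shares, 1.54 without PO1 and PO2 and 1.01 at the E15.5 make-up. The same ratio for *Bcl11a* was 0.542 with suffix 1 alone, 0.968 without normalization, 0.729 without PO1 and PO2 and 0.556 at the E15.5 make-up. For *Satb1* it was 0.357 and 0.677 with suffix 1 or 2 alone, 0.827 without normalization and 0.673 as thinned shares.

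The osteogenic ratio of *Bcl11b* at E15.5 was 8.63 without doublets, 6.38 as thinned shares and 6.81 without PO1 and PO2. At E17.5 it was 2.48 and 1.58 with suffix 1 or 2 alone, 2.07 as a mean of cells, 2.34 without normalization, 1.94 as thinned shares and 1.69 without PO1 and PO2. For *Bcl11a* it was 4.11 as thinned shares at E15.5, and 0.990 with suffix 1 alone and 0.944 without normalization at E17.5. For *Satb1* at E17.5 it was 0.711 and 0.324 with suffix 1 or 2 alone and 0.565 without normalization.

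In the highest cluster, *Bcl11b* in OG2 at E15.5 was at 6.93 as a mean of cells and 8.92 without PO1 and PO2, and in PO2 at E17.5 at 3.47 without normalization, with OG1 at 2.84 when PO1 and PO2 were left out. *Bcl11a* in PO2 at E15.5 was at 6.39 without normalization. *Satb1* in LIG at E17.5 was at 6.66 and 2.37 with suffix 1 or 3 alone. The clusters in which *Bcl11b* passed were 4 at 1.5-fold and 1 with suffix 3 alone, in place of 2, and those in which *Satb1* passed were 1 at 1.5-fold and 1 with suffix 1 alone, in place of 0. Without a minimum of 50 UMIs, 1.27% of genes passed in OG1 and 1.64% in LIG. By Pearson correlation 2 of the 5 genes most like each member remained, *Tln2* and *Adgre5* for *Bcl11a*, *Lef1* and *Inhba* for *Bcl11b*, and *Gm26735* and *Syndig1* for *Satb1*.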
